A study of Mus musculus with 16 samples.

Results

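The genes described here are 42 genes of the extracellular matrix and of the stromal cells that make it, followed through sorted pancreatic β cells of young and old mice. They were taken by symbol from the deposited count table, which holds 22869 genes. The list was chosen with earlier results of these data known. RNA came from 3 pools of old mice, aged 15, 16 and 17 months, and 2 pools of young mice aged 4 to 6 weeks. All RNA mice were of the strain labelled MIP-GFP/Bl6, in which a green fluorescent protein under the mouse insulin promoter marks β cells, and live β cells were sorted from isolated islets. CpG methylation by bisulfite sequencing was held for 1 old and 1 young library. The histone marks H3K27me3 and H3K4me1 were held for 1 library per age and H3K27ac for 1 young library, all from mice labelled C57Bl6, with ages of 16 to 18 months for old and 4 to 6 weeks for young. Each RNA library came from a pool of 5 to 10 mice by the design text, which also gives an age of 18 to 22 months for the old bisulfite pool, which differs from its label. The sources used here do not say how β cells of the C57Bl6 mice were recognised in the sort.

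The extracellular matrix is the protein scaffold around cells. Fibrillar collagens give it tensile strength, basement membrane collagens and laminins form the thin sheets on which epithelium and blood vessels rest, and elastic fibres let vessel walls recoil. In pancreatic islets this material is made mainly by pericytes, smooth muscle cells, stellate cells, fibroblasts and endothelial cells, whereas β cells are known to make little of it and to rest on the basement membrane laid down by capillaries. H3K27me3 is the mark of Polycomb repression, H3K4me1 marks enhancers and promoter flanks, H3K27ac marks active elements, and methylation of a CpG-rich promoter usually goes with a silent gene.

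The sequences just upstream of 5 starts are shown because they set methylated starts with few CG beside less methylated ones with more. Acta2 and Cspg4 also carry 2 of the methylation differences given later. The 5 were picked to show that contrast, and other members did not follow it, as given later. Each is the 250 bases before the RefSeq start (build GRCm38.p6, strand of the gene), with every CG in capitals.
Acta2 (chr19:34255374-34255623, minus strand): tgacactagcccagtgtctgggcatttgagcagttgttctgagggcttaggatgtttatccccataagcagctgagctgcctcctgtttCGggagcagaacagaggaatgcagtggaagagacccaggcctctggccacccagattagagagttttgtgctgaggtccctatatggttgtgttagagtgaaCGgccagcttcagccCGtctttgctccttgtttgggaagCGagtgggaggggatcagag
Sparc (chr11:55420081-55420330, minus strand): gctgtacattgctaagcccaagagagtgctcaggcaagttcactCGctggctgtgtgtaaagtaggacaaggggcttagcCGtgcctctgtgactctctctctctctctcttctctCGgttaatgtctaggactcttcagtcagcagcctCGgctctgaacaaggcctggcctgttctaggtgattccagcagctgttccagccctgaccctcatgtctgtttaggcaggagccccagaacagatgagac
Col1a2 (chr6:4505368-4505617, plus strand): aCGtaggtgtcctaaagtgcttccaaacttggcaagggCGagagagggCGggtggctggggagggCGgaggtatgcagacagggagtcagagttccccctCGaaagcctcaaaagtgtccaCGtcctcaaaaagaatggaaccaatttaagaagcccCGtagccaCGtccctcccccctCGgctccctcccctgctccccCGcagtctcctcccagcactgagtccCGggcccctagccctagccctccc
Cspg4 (chr9:56864854-56865103, plus strand): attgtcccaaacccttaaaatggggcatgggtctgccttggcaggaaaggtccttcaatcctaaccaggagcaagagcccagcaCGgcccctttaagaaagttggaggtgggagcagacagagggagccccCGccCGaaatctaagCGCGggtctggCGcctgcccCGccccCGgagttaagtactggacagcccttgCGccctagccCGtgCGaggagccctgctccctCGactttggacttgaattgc
Fbn1 (chr2:125506439-125506688, minus strand): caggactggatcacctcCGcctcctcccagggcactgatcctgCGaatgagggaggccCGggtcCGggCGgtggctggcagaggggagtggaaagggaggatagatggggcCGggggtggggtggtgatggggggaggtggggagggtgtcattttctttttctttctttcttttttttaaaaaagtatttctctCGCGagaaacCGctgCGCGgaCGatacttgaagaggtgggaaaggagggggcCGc

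Acta2 and Sparc hold 4 CG each in these 250 bases, Col1a2 11, Cspg4 12 and Fbn1 13. Entries for 28 of the 42 genes were matched in the RefSeq table, in 32 promoter sequences. Their median was 8 CG, against 6 over all 32851 entries, with the middle of the members spanning 4 to 14 and that of all entries 2 to 16. The GC box core GGGCGG (either strand) was found in the 250 bases of 17 of the 32 member entries and in 32.7% of all entries, and TATAAA (either strand) in 4, those of Col3a1, Postn, Thbs2 and Vim, and in 12.4% of all. A match is a description of the letters only.

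The deposited read counts summed to 26670334, 33562822 and 23559908 for old libraries 1, 2 and 3, and to 6377619 and 12892123 for the young libraries. Since the young columns carry no replicate number, these are named by their depth, as shallower and deeper. Their column headers end in a number and the letter K, 10.2 times larger for the deeper library than for the shallower one, and what it counts is not stated. Levels are given as CPM, read counts divided by library size with TMM factors. Ins1 lay between 205563 and 318177 CPM in all 5 libraries, so insulin transcripts dominated each of them. The young libraries stood apart from each other in the matrix genes, so both values are given throughout. A p-value sets the difference between the ages against the spread between pools of the same age, and rests on only 3 old and 2 young pools. In bulk RNA, fewer cells of a type and less RNA per cell cannot be told apart.

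Matrix and stromal transcripts were scarce in old β-cell libraries and more abundant in young ones. Summed over the 42 genes, the level was 220 CPM, 195 CPM and 200 CPM in old libraries 1, 2 and 3, against 1663 and 9474 CPM in the shallower and deeper young libraries. The 3 old sums lay within a narrow band, and both young sums were above it. As a share of all gene counts, the 42 genes took 0.0178 to 0.0219% in old libraries, 0.176% in the shallower young library and 1.02% in the deeper one.

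All 42 genes passed the filter on low counts. With edgeR's quasi-likelihood test and Benjamini-Hochberg adjustment over the 15544 genes tested (threshold 0.05), 36 of the 42 fell in old libraries and 0 rose, where 7.93% of all tested genes fell and 3.17% rose. All 42 fitted changes were negative, and 40 of the 42 had an unadjusted p under 0.05. The median log2 fold change of the 42 was -5.93, and that of all tested genes -0.05. In 39 of the 42, every old library lay below both young libraries, an order that 24.5% of all tested genes showed, and the reverse order, shown by 24.4% of all tested genes, was found in 0. The genes not past the threshold were Col5a2, Lox, Loxl2, Timp1, Tagln and Cspg4, and of these Col5a2, Loxl2 and Timp1 had overlapping groups. Leaving out old library 1, 2 or 3 left 21, 27 and 14 genes that fell, in fits that called 1.95%, 2.63% and 1.81% of all genes as fallen. Without the shallower young library the median log2 fold change of the 42 was -6.58, and without the deeper one it was -4.12. The fitted fold of 39 of the 42 genes moved by over 1.5 times without the deeper young library, and that of 34 without the shallower one. Of the 36 calls, 12 held whichever single library was left out: Col1a1, Col1a2, Col6a1, Col6a2, Col15a1, Fn1, Bgn, Sparc, Fbn1, Eln, Timp2 and Acta2. The other 24 were lost without at least 1 library, and 7 of them, Nid1, Lama4, Thbs1, Fbln1, Timp3, Des and Rgs5, without any one of the 3 old libraries.

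**Figure D1:**
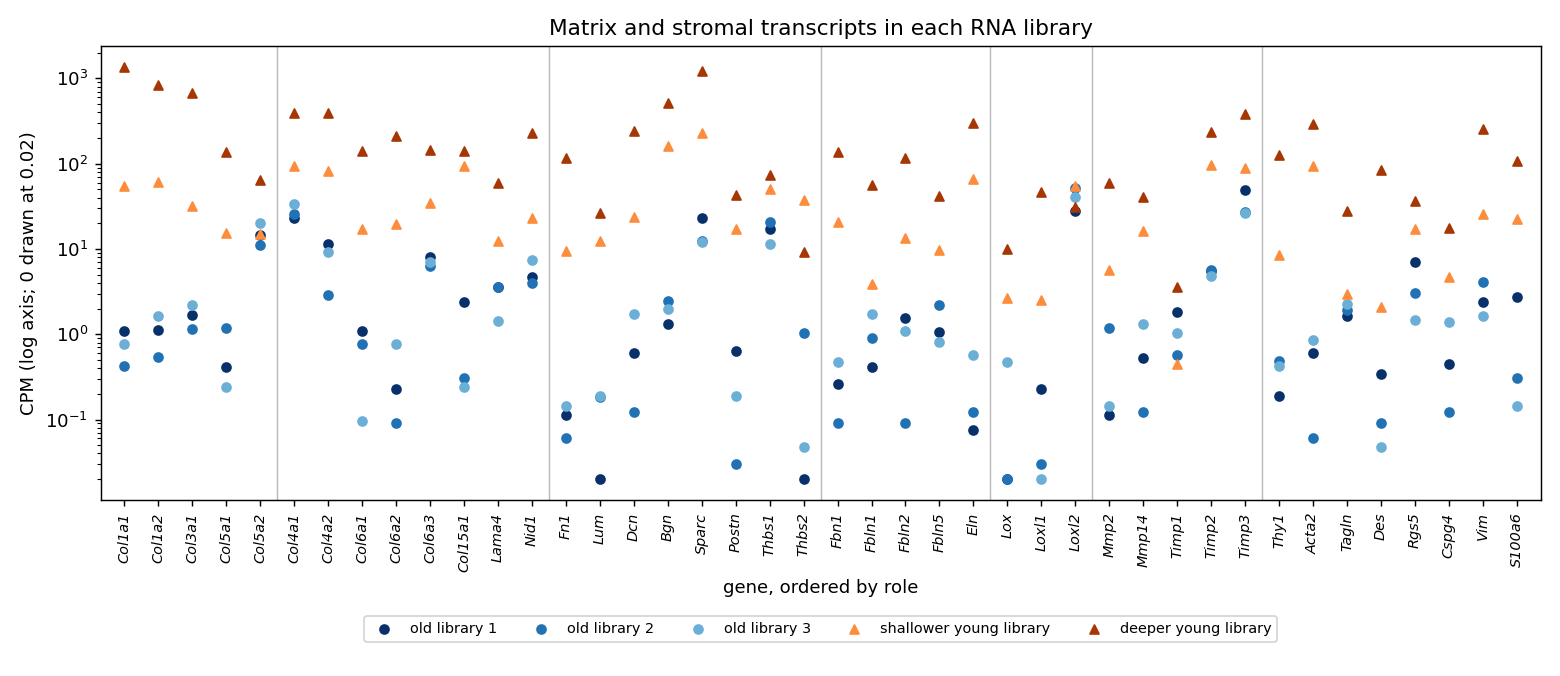
CPM (vertical log axis, 0 drawn at 0.02) of the 42 genes (horizontal axis, ordered by role, grey lines between roles) in each of the 3 old libraries (circles) and the 2 young libraries (triangles). In 39 genes all circles lie below both triangles; the exceptions are Col5a2, Loxl2 and Timp1, and only for Thbs2 and Loxl2 does the shallower young library lie above the deeper one.

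Fibrillar collagens, the rope-like proteins of connective tissue, had the lowest old levels relative to young ones by group median, with 4 of 5 genes fallen and a median log2 fold change of -7.74. Col1a1, the α1 chain of collagen I, had 1.09, 0.425 and 0.763 CPM in old libraries 1, 2 and 3, 54.1 and 1377 CPM in the shallower and deeper young libraries. It fell by 9.89 on the log2 scale (SE 1.30, edgeR adjusted p = 0.00662). Its partner chain Col1a2 had 1.13, 0.546 and 1.62 CPM in the old libraries and 61.8 and 841 CPM in the shallower and deeper young libraries, a fall of similar size: it fell by 8.71 (SE 1.09, edgeR adjusted p = 0.00555). Collagen III, which co-assembles with collagen I in vessel walls and skin, followed the same order. For its gene Col3a1 the old libraries held 1.70, 1.15 and 2.19 CPM and the young ones 31.9 and 681 CPM, and it fell by 7.74 (SE 1.13, edgeR adjusted p = 0.00916). Collagen V starts and limits fibril growth, and the 2 chains measured here gave different values. Col5a1 lay between 0.238 and 1.18 CPM in old libraries and fell by 6.89. Col5a2 had 14.5, 11.0 and 20.2 CPM in old libraries 1, 2 and 3 against 15.1 and 63.8 CPM in the shallower and deeper young libraries, so that the shallower young value lay among the old ones. Its log2 fold change of -1.38 (SE 0.60) had an edgeR adjusted p of 0.165. Without the deeper young library the log2 fold change was 0.02, and without the shallower one -2.06. The calls of Col3a1 and Col5a1 were lost without old library 3.

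Among basement membrane and other collagens, with laminin α4 and nidogen, 8 of 8 fell, with a median log2 fold change of -4.75. Col4a1 and Col4a2 encode the chains of collagen IV, the mesh of every basement membrane, and lie head to head on chromosome 8. Col4a1 had 22.9, 25.5 and 33.6 CPM in old libraries 1, 2 and 3, and 94.5 and 392 CPM in the shallower and deeper young libraries (it fell by 3.16, SE 0.52, edgeR adjusted p = 0.0138). Col4a2 reached 11.5, 2.85 and 9.25 CPM in the old libraries and 82.6 and 395 CPM in the young ones (it fell by 4.93, SE 0.76, edgeR adjusted p = 0.0106). In both genes each old library lay below each young one. Nid1, which links laminin and collagen IV sheets, had 4.67, 4.01 and 7.34 CPM in old libraries and 23.2 and 229 CPM in young ones, and fell by 4.57 (SE 0.82, edgeR adjusted p = 0.0171). The collagen VI chains form beaded microfibrils between cells. Col6a1 and Col6a2 lay between 0.0911 and 1.09 CPM in the old libraries and Col6a1 fell by 6.87 and Col6a2 fell by 8.42, whereas Col6a3 kept 8.10, 6.25 and 7.01 CPM there and fell by 3.66. Col15a1, a collagen of vessel basement membranes, fell by 6.88, and Lama4, the laminin chain of capillaries, fell by 3.64. Without old library 3 the calls of Col4a1, Col4a2, Col6a3, Nid1 and Lama4 were lost, without old library 1 those of Col4a1, Nid1 and Lama4, without old library 2 those of Nid1 and Lama4, and without the deeper young library that of Lama4.

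Adhesive glycoproteins and small proteoglycans fell in 8 of 8 genes, with a median log2 fold change of -6.96. Sparc, a collagen-binding glycoprotein, had 23.1, 12.3 and 12.1 CPM in old libraries 1, 2 and 3, 232 and 1236 CPM in the shallower and deeper young libraries, and fell by 5.54 (SE 0.68, edgeR adjusted p = 0.00545). Bgn, or biglycan, a proteoglycan that binds collagen and growth factors, was separated widely between the ages. It had 1.32, 2.43 and 1.95 CPM in the old libraries and 162 and 509 CPM in the young ones (it fell by 7.46, SE 0.56, edgeR adjusted p = 0.00335). Dcn, or decorin, a relative of biglycan, had 0.603, 0.121 and 1.72 CPM in old libraries and 23.6 and 243 CPM in young ones, and fell by 7.42 (SE 1.20, edgeR adjusted p = 0.0125). Thrombospondin 1 was the member of this group with the smallest fall. Thbs1 had 17.4, 20.9 and 11.5 CPM in the old libraries and 51.1 and 73.5 CPM in the young ones, and fell by 1.91 (SE 0.38, edgeR adjusted p = 0.0234). Its relative Thbs2 was listed at 0, 1.03 and 0.0477 CPM in old libraries 1, 2 and 3, and fell by 5.94 (edgeR adjusted p = 0.0451). Fn1, fibronectin, to which cells attach through integrins, lay between 0.0607 and 0.143 CPM in old libraries and fell by 9.18. Lum and Postn, a corneal and skin proteoglycan and a matrix protein of remodelling tissue, were lower too: Lum fell by 7.23 and Postn fell by 6.69. Leaving out old library 3 ended the calls of Lum, Postn, Thbs1 and Thbs2, leaving out old library 1 those of Dcn, Thbs1 and Thbs2, old library 2 that of Thbs1, and the shallower young library that of Thbs2.

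Elastic fibre genes fell in 5 of 5 cases, with a median log2 fold change of -6.19. Eln, elastin itself, had 0.0753, 0.121 and 0.572 CPM in old libraries 1, 2 and 3, 65.9 and 297 CPM in the shallower and deeper young libraries. It fell by 9.56 (SE 0.93, edgeR adjusted p = 0.00384). Fbn1, fibrillin 1, builds the microfibrils on which elastin is laid down. The old libraries held 0.264, 0.0911 and 0.477 CPM of it and the young ones 20.9 and 137 CPM, and it fell by 8.20 (SE 0.97, edgeR adjusted p = 0.00522). Fbln2, a fibulin of vessel walls, was at 1.54, 0.0911 and 1.10 CPM in old and 13.5 and 118 CPM in young libraries, and fell by 6.19 (SE 1.17, edgeR adjusted p = 0.0198). Of the other fibulins, Fbln1 fell by 4.88 and Fbln5 fell by 4.25. The calls of Fbln1, Fbln2 and Fbln5 were lost without old library 1 and without old library 3, that of Fbln1 also without old library 2, and those of Fbln1 and Fbln5 without the deeper young library. For all 5 genes the deeper young library held at least 4.28 times as much as the shallower one.

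Of the 3 lysyl oxidases, which crosslink collagen and elastin, 1 fell. Loxl2 was the member with the highest level in old library 2, and its groups overlapped. It had 27.6, 52.0 and 40.4 CPM in old libraries 1, 2 and 3, 54.8 and 31.2 CPM in the shallower and deeper young libraries, with a log2 fold change of -0.10 (SE 0.40, edgeR adjusted p = 0.895). The sign turned to 0.08 without old library 1 and to 0.36 without the shallower young library. Loxl1, needed for elastic fibre upkeep, had 0.226, 0.0304 and 0 CPM in the old libraries and 2.52 and 47.2 CPM in the young ones, and fell by 8.07 (SE 1.54, edgeR adjusted p = 0.0203); the call was lost without old library 2, without old library 3 and without the deeper young library. Lox was listed at 0, 0 and 0.477 CPM in the old and at 2.67 and 9.92 CPM in the young libraries, and its log2 fold change of -5.33 (SE 1.92) had an edgeR adjusted p of 0.107.

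Matrix proteases and their inhibitors fell in 4 of 5 cases, with a median log2 fold change of -4.95. The inhibitors of metalloproteinases differed in how much was left in old libraries. Timp3, which stays bound to the matrix, had 49.0, 27.1 and 26.7 CPM in old libraries 1, 2 and 3 and 89.1 and 386 CPM in the young ones, and fell by 2.80 (SE 0.56, edgeR adjusted p = 0.0238). Timp2 was even across the old libraries, with 5.50, 5.68 and 4.81 CPM in old libraries and 97.0 and 232 CPM in young ones. It fell by 4.95 (SE 0.41, edgeR adjusted p = 0.00384). Timp1 was the only one of the 42 with the shallower young library below every old one. It had 1.81, 0.577 and 1.05 CPM in old libraries, 0.446 and 3.62 CPM in the shallower and deeper young libraries (log2 fold change -0.84, SE 1.33, edgeR adjusted p = 0.716), and without the deeper library the value was 1.36. Mmp2, the gelatinase of stromal cells, had 0.113, 1.18 and 0.143 CPM in old libraries and 5.64 and 58.8 CPM in young ones, and fell by 6.01 (SE 1.29, edgeR adjusted p = 0.0275); leaving out old library 1, old library 3 or the deeper young library ended that call. Mmp14, a membrane-bound protease that activates Mmp2, fell by 5.46. The call of Timp3 was lost without any one of the old libraries, and that of Mmp14 without old library 1.

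Stromal and mural cell genes fell in 6 of 8 cases, with a median log2 fold change of -5.81. Acta2, the smooth muscle actin of mural cells and activated stellate cells, had 0.603, 0.0607 and 0.858 CPM in old libraries 1, 2 and 3, 94.9 and 293 CPM in the shallower and deeper young libraries. It fell by 8.65 (SE 0.87, edgeR adjusted p = 0.00387). Vim encodes vimentin, the intermediate filament of mesenchymal cells, and had 2.37, 4.13 and 1.62 CPM in old and 26 and 257 CPM in young libraries; it fell by 5.69 (SE 0.89, edgeR adjusted p = 0.0112). For both, every old library lay below both young ones. Thy1, a surface protein of fibroblasts, had 0.188, 0.486 and 0.429 CPM in old libraries and 8.61 and 126 CPM in young ones, and fell by 7.49 (SE 1.10, edgeR adjusted p = 0.00920). S100a6, a calcium-binding protein of stromal cells, had 2.71, 0.304 and 0.143 CPM in old and 22.6 and 106 CPM in young libraries, and fell by 5.92 (SE 1.19, edgeR adjusted p = 0.0234). The muscle filament gene Des fell by 8.0 and the pericyte gene Rgs5 fell by 2.78. Tagln and Cspg4 did not pass the test, although no old library reached a young one. Tagln, an actin-binding protein of smooth muscle, had 1.66, 1.94 and 2.29 CPM in old libraries and 2.97 and 28.0 CPM in young ones (log2 fold change -2.98, SE 0.94, edgeR adjusted p = 0.0755), and without the deeper young library its log2 fold change was -0.59. For Cspg4, the pericyte proteoglycan NG2, the old libraries had 0.452, 0.121 and 1.38 CPM and the young ones 4.75 and 17.5 CPM (log2 fold change -4.10, SE 1.19, edgeR adjusted p = 0.0619). Lox, Tagln and Cspg4 were called as fallen by DESeq2 and in the edgeR fit without the shallower young library. The calls of Des and Rgs5 were lost without any one of the old libraries and without the deeper young one, that of Vim without old library 1 or 3, that of S100a6 without old library 2 or 3, and that of Thy1 without old library 3.

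**Figure D2:**
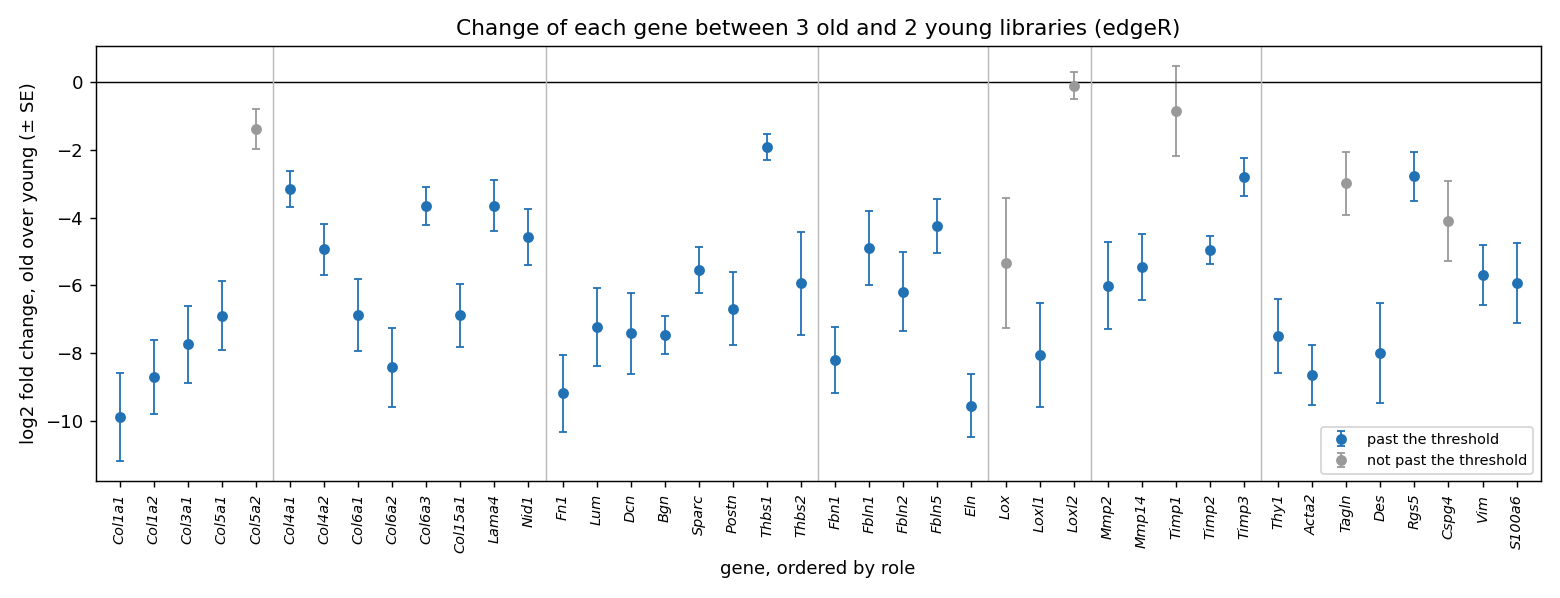
Log2 fold change of old over young with its SE from edgeR (vertical axis) for the 42 genes in order of role (horizontal axis), over 3 old and 2 young libraries; blue genes were past the threshold and grey ones not. All 42 points lie below 0, from -0.10 for Loxl2 to -9.89 for Col1a1.

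The genes that remained in old libraries were few and differed from those that led in young ones. At least 5 CPM in every old library was reached by 7 of the 42, against 61.0% of all tested genes: Col5a2, Col4a1, Col6a3, Sparc, Thbs1, Loxl2 and Timp3. These 7 made up 73.9, 79.5 and 75.6% of the summed matrix level in old libraries 1, 2 and 3, but 34.3% in the shallower and 24.6% in the deeper young library. Their median log2 fold change was -2.80, and 5 of the 7 fell. Below 1 CPM in every old library were 11 genes, among them Fn1, Eln, Fbn1, Acta2, Des and Lox, with a median log2 fold change of -8.07. The share of all tested genes below that level was not counted. Both sets were picked by their old levels, which also enter the fold change. The gap between their medians thus follows in part from that choice and is no separate result.

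The make-up of the matrix transcripts differed between the libraries as well. Fibrillar collagens took 7.35 to 12.5% of the summed level of the 42 genes in old libraries, 10.7% in the shallower young library and 32.7% in the deeper one, so the shallower young library lay within the old range. Elastic fibre genes took 1.52 to 2.33% in old libraries and 6.86% in both young ones. Lysyl oxidases took 12.7, 26.7 and 20.4% in old libraries 1, 2 and 3, against 3.61 and 0.93% in the shallower and deeper young libraries. Proteases and inhibitors took 17.0 to 25.9% in old libraries and 12.5 and 7.62% in young ones.

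**Figure D3:**
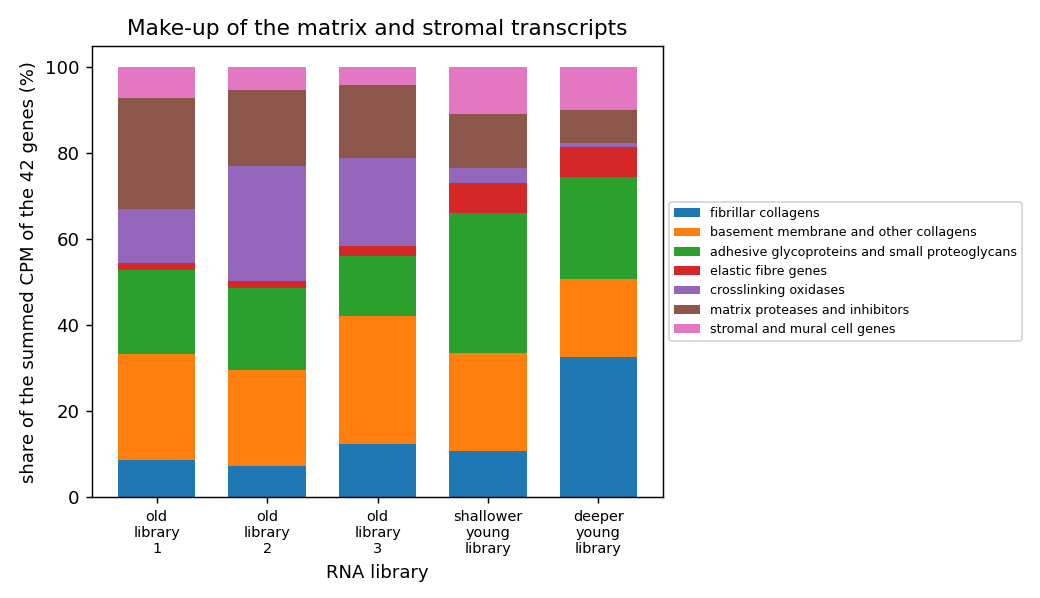
Share of the summed CPM of the 42 genes (vertical axis, %) taken by each role group (colours) in each RNA library (horizontal axis). Lysyl oxidases take 12.7 to 26.7% in the old libraries and under 4% in the young ones, while elastic fibre genes take 6.86% in both young libraries and at most 2.33% in the old ones.

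Comparing levels between genes needs a value per transcript length, which the authors' second table gives as a signal on a scale of its own, comparable only within a library. In the deeper young library Sparc was highest of the 42 with 503, followed by Col1a1 with 274, Bgn with 199, Acta2 with 154 and Col1a2 with 153. In the shallower young library the leading genes per length were Sparc with 39.4, Bgn with 26.5 and Acta2 with 20.8. Timp3 with 15.7, Sparc with 15.0 and Loxl2 with 7.99 led per length in old library 1, and Loxl2 with 18.0, Timp3 with 10.4 and Sparc with 9.59 in old library 2. Sparc was thus among the 3 leading genes per length in each of these 4 libraries. The table's column for old library 3 equals that of the shallower young library and was not used.

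The young libraries also differed from each other in most of the matrix genes. Of the 42 genes, 40 were higher in the deeper than in the shallower young library, where 52.7% of all tested genes were, and 38 were at least 2 times higher, where 26.8% of all were. The median ratio of the deeper to the shallower library was 4.80 over the 42 genes and 1.03 over all tested genes. By role, the median ratio was 13.6 for fibrillar collagens, 7.07 for stromal and mural genes, 6.56 for elastic fibre genes and 2.84 for glycoproteins and proteoglycans. Des had the highest ratio, 40.1 (95% interval from the counts alone, 23.8 to 73.7), and Col1a1 had 25.5 (23.0 to 28.3). Col15a1, at 1.49 (1.36 to 1.63), and Thbs1, at 1.44 (1.27 to 1.63), were higher in the deeper library by less than 2 times. Thbs2, at 0.249 (0.200 to 0.310), and Loxl2, at 0.569 (0.494 to 0.656), went the other way, with 37.4 and 54.8 CPM in the shallower library and 9.34 and 31.2 CPM in the deeper one. Against the mean of the old libraries, the median member was 17.5 times higher in the shallower young library and 97.9 times higher in the deeper one. The shallower young library alone was above every old library for 40 of the 42 genes, and the deeper one for 41. The share of all tested genes with that order for 1 young library was not counted. Both young libraries were above every old one in 24.5% of all tested genes and in 39 of the 42.

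Markers of other pancreatic cells moved in the same direction. Their counts stand beside the 7.93% of all tested genes that fell and the 3.17% that rose. Stellate and fibroblast markers summed to 64.3 to 68.2 CPM in old libraries, 228 and 702 CPM in the shallower and deeper young libraries, and 9 of 16 tested fell. Among the most abundant of them, Gsn and Ngfr did not pass the test and Ly6a fell by 3.45 (edgeR adjusted p = 0.00831). Igfbp6, at 0 in all old libraries, had too few counts to be tested. Mural markers summed to 10.9 to 13.6 CPM in old and 248 and 729 CPM in young libraries, and 6 of 8 fell. Myh11, smooth muscle myosin, had 2.75, 0.971 and 0.620 CPM in old libraries 1, 2 and 3 and 114 and 356 CPM in young ones. Endothelial markers fell in 13 of 14 cases, from 642 and 1322 CPM in young libraries to between 73.8 and 108 CPM in old ones. Pecam1, an adhesion protein between endothelial cells, was at 6.70, 13.8 and 3.34 CPM in old and 100 and 141 CPM in young libraries.

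Markers of exocrine, endocrine and blood-borne cells were also followed, beside the same shares of all tested genes, 7.93% fallen and 3.17% risen. Acinar markers summed to 214 to 245 CPM in old libraries and 1845 and 2479 CPM in young ones, with 11 of 15 tested fallen. Ptf1a, at 0 in all old libraries, had too few counts to be tested. Delta and PP cell markers summed to 126 to 268 CPM in old and 2487 and 7048 CPM in young libraries, with 4 of 4 fallen, and alpha cell markers to 903 to 1831 CPM in old and 2008 and 31706 CPM in young ones, with 2 of 6 fallen. The deeper young library thus held far more alpha cell transcripts than any other. Duct markers fell in 4 of 10 cases (368 to 470 CPM in old, 796 and 663 CPM in young libraries) and macrophage and lymphocyte markers in 3 of 12 (29.5 to 46.5 CPM in old, 209 and 301 CPM in young libraries). None of the tested Schwann, mesothelial and blood cell markers, 6, 1 and 3 genes, passed edgeR's test; their sums were 90.8 to 108 CPM, 0.273 to 1.43 CPM and 3.28 to 12.7 CPM in old libraries, 95.2, 9.36 and 8.47 CPM in the shallower and 148, 13.7 and 47.1 CPM in the deeper young library. The mesothelial genes Upk3b, Upk1b and Lrrn4 were at 0 in all old libraries, but had too few counts over the 5 libraries to be tested. Of 12 β-cell markers 0 fell, near the share of all tested genes, and 3 rose. Their sums were 333085 to 438610 CPM in old and 315967 and 257394 CPM in young libraries. Ngfr stands in both the stellate and the Schwann list. The part of these other cell types in the fall of the matrix genes was not tested.

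Genes that make, sense or drive the matrix without being fibres themselves gave a mixed picture. Of all tested genes, 7.93% fell and 3.17% rose, with a median log2 fold change of -0.05. Of 19 genes that fold and process collagen, 5 fell and 1 rose, with a median log2 fold change of -0.15. The most abundant of them, P4hb, the disulfide isomerase that is also a subunit of prolyl hydroxylase, had 778, 869 and 862 CPM in old libraries and 560 and 369 CPM in young ones (log2 fold change 0.85, edgeR adjusted p = 0.0638). Of 20 matrix receptors, 7 fell and 2 rose, with a median of -0.91, and Itgav, integrin αV, had 285, 277 and 199 CPM in old libraries against 119 and 74.8 CPM in young ones, a rise of 1.39 (SE 0.30, edgeR adjusted p = 0.0283). Laminins and other basement membrane genes fell in 10 of 14 cases with a median of -4.11. Hspg2, perlecan, a large proteoglycan of basement membranes, had 17.7, 11.6 and 10.7 CPM in old and 152 and 712 CPM in young libraries and fell by 5.02 (SE 0.61, edgeR adjusted p = 0.00543). Of 18 genes of the TGF-β axis, a main inducer of matrix genes, 7 fell and 0 rose, with a median of -2.84, and Ltbp3, which holds latent TGF-β, fell by 1.20 (edgeR adjusted p = 0.0398). Of 14 mesenchymal transcription factors, 9 could be tested, 3 fell and 0 rose. Twist1 and Twist2, at 0 in all old libraries, were among those with too few counts to test. Zeb2 had 2.11, 0.0304 and 0.715 CPM in old and 23.0 and 120 CPM in young libraries and fell by 6.23 (edgeR adjusted p = 0.0223), whereas Zeb1 had 42.6, 38 and 44.2 CPM in old and 34.6 and 108 CPM in young ones (log2 fold change -0.78, edgeR adjusted p = 0.283).

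Promoter methylation of the matrix genes was nearly the same in the old and the young library. Methylated calls were summed over the CpGs from 1000 bases before to 500 after each start that had at least 5 reads in both libraries, and Fisher's exact test (two-sided, adjusted over the 21369 starts tested) compared them. With 1 library per age, the test compares these libraries and not the ages, and reads are not independent molecules, so that intervals cover counting error only. The median level of the 42 promoters was 17.4% in the young and 18.8% in the old library, and the median difference, old minus young, was 0.41 points (0.07 over all starts). A change past the test and of at least 10 points was found as a loss in 3 of the 42 (5.09% of all starts) and as a gain in 1 (4.09% of all starts), both near the background. In 29 of the 42 the libraries were within 5 points of each other, and in 38 within 10 points, against 70.1 and 88.8% of all starts.

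The promoters spanned the whole range of levels. Under 10% in the young library were 10 of the 42, against 47.3% of all starts, and 23 of the 42 were at 15% or more, against 43.1%. At 50% or more were 10, against 31.3% of all starts. Col3a1 was highest with 93.9% in the young and 92.2% in the old library over 6 CpGs, followed by Timp1 with 84.1 and 80.4% and Col6a3 with 79.3 and 76.2%. Fn1, with 5.32 and 5.39% over 83 CpGs, and Thbs1, with 5.88 and 8.85% over 63 CpGs, were lowest in the young library. Of the 10 genes under 10%, 10 fell in RNA, and of the 10 genes at 50% or more, 8 fell, so genes of both kinds of promoter were among those lower in old libraries.

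Acta2 had the smallest adjusted p among the losses. Over 19 CpGs its level was 71.7% in the young library (95% Wilson interval 66.5 to 76.4, 311 calls) and 55.4% in the old one (50.5 to 60.3, 395 calls), a difference of -16.3 points (adjusted p = 3.99e-05, Fisher's exact test). In the 250 bases printed above, its 4 CpGs at -161, -59, -44 and -20 from the RefSeq start had 25 of 25, 12 of 12, 5 of 10 and 5 of 5 methylated reads in the young library and 17 of 25, 19 of 23, 5 of 7 and 6 of 8 in the old one. The CpGs at -161, -59 and -20 were thus fully methylated in the young reads, and all 3 held some unmethylated reads in the old library. With a window of 2000 bases on either side the difference was -7.89 points.

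Dcn went from 25.8% (17.9 to 35.8) to 6.15% (2.42 to 14.8), or -19.7 points (adjusted p = 0.00317, Fisher's exact test), but over 4 CpGs with 89 young and 65 old calls. With CpGs of at least 10 reads only, the difference was -0.89 points and no longer called. With each CpG counting equally it was -21.4 points. Col5a2 went from 54.5% (46.9 to 62.0) to 40.7% (35.3 to 46.4) over 12 CpGs, or -13.8 points (adjusted p = 0.0106, Fisher's exact test). That loss depended on how the CpGs were weighted: with each CpG counting equally the difference was 8.30 points, and with 500 bases on either side of the start 4.15 points.

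Cspg4 carried the gain, from 38.6% (36.1 to 41.1, 1437 calls) to 50.4% (47.4 to 53.3, 1106 calls) over 35 CpGs, or 11.8 points (adjusted p = 1.76e-08, Fisher's exact test). Its CpGs did not move together. In the 250 bases printed above, the CpGs at -115, -104 and -102 were at 0 of 40, 0 of 41 and 0 of 40 reads in the young library and at 3 of 20 each in the old one (0 of 40 allows a level of up to 7.5%), and those at -42 and -38 went from 1 of 43 and 1 of 44 to 11 of 47 and 17 of 49. Between these, the CpGs at -93, -84 and -78 went the other way, from 74.3, 47.5 and 25.7% in the young library to 41.7, 25 and 2.86% in the old one. With each CpG counting equally, the difference over the whole window was 3.98 points and not called.

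The other printed sequences gave 62.6% in the young and 76.1% in the old library for the 4 CpGs of Sparc (131 and 88 calls), 27.9 and 18.3% for the 11 of Col1a2 (183 and 208 calls), and 8.23 and 7.61% for the 13 of Fbn1 (316 and 276 calls). The sparse Sparc sequence was thus mostly methylated and the dense Fbn1 sequence mostly free of methylation in both libraries, while the RNA of both genes was 10 times or more higher in either young library than in any old one. Other members went against this contrast. The 4 CpGs of Rgs5 were at 5.0% in the young and 2.21% in the old library (100 and 136 calls). The 10 CpGs of Des were at 77.9 and 65.2% (253 and 204 calls).

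**Figure D4:**
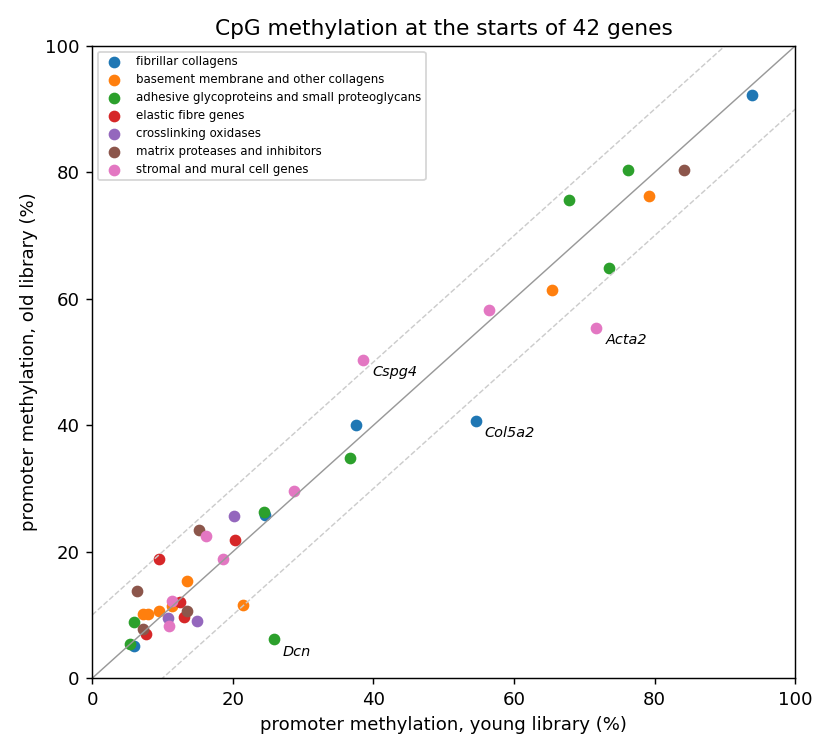
Promoter methylation of the 42 genes (points, coloured by role) in the young library (horizontal axis, %) and the old library (vertical axis, %), with the line of equality and dashed lines 10 points from it. The 4 named genes were past the test and at least 10 points from equality; 38 of the 42 lie within 10 points.

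Gene bodies, taken from 2000 bases after the start to the gene end, were methylated alike in both libraries. Over the 41 genes with enough CpGs, the median was 81.0% in the young and 80.9% in the old library, and the median difference was -0.93 points (0.09 over all gene bodies). Bgn was the only one past the test and 10 points, with 83.2% in the young and 72.6% in the old library over 38 CpGs (adjusted p = 0.000255, Fisher's exact test). It was a loss, found in 1.77% of all gene bodies; gains, found in 1.59% of all, numbered 0.

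H3K27me3 lay at the starts of most of the matrix genes in both ages. A deposited region overlapped the window from 1000 bases before to 500 after the start in 36 of 42 genes (85.7%) in the young list, against 27.6% of 22534 genes with 1 position, and in 36 of 42 in the old list, against 41.0%. In 33 genes the window was covered in both lists, as in 22.8% of all genes. Col5a2, Thbs1 and Tagln had it in the young list only, Timp1, Timp2 and S100a6 in the old list only, and Col3a1, Nid1 and Lum in neither. Of the 33 genes covered in both lists 30 fell in RNA, with a median log2 fold change of -6.19, and the 3 covered in neither list fell too. Within 10 kb of the gene a region was listed for 39 genes in the young list (50.9% of all genes) and 40 in the old list (67.7%). The old list held more and wider regions, 38007 over 649 megabases against 31187 over 452, so a gene listed in 1 age only is not a measured change.

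Across the whole gene, the regions covered a median of 53.0% of the length in the young list and 84.9% in the old list, where the median over all genes was 0 and 7.10%. The covered share was larger in the old list for 29 of the 42 genes and smaller for 7, or 69.0 and 16.7%, against 39.3 and 8.94% of all genes. A gene without a region in either list cannot differ, and the young median over all genes was 0. Larger and smaller shares numbered 29 and 7 among members and 8854 and 2014 among all genes, a like excess of larger ones. A wider cover in the old list was thus not particular to the matrix genes. Sparc was covered over 21.8% in the young and 76.5% in the old list, Col1a1 over 60.4 and 73.2%, and Acta2 over 83.0 and 90%. Thbs1 was covered over 68.0% in the young list. In the old list it had no region over the gene itself, but had one within 10 kb.

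H3K27ac, held for the young age only, was listed at few of the matrix genes. A region lay at the start of 1 of the 42 genes, Loxl2, where 34.0% of all genes had one, and within 10 kb of 3, Col4a1, Loxl2 and Timp2, where 48.0% of all genes had one. Loxl2 (chr14:70009283-70095641 in mm9, plus strand) also had H3K27me3 at its start in both lists, and its RNA was the one least different between the ages. H3K4me1 peaks were found at the start of 22 genes in the young list (37.7% of all genes) and 7 in the old list (22.3% of all genes), the latter being Col1a2, Fn1, Thbs1, Fbn1, Fbln5, Timp3 and Vim. Within 10 kb of the gene, 30 genes had a young peak (76.2% of all genes) and 20 an old peak (62.9% of all genes). The young list held 77291 peaks and the old one 36207, called separately.

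**Figure D5:**
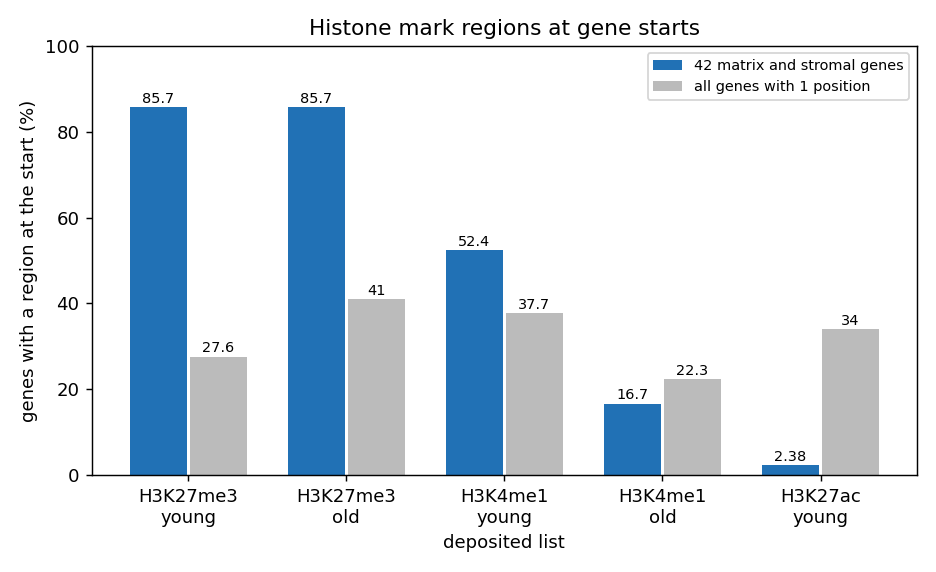
Percent of genes (vertical axis) with a deposited region at the start in each histone mark list (horizontal axis), for the 42 matrix and stromal genes (blue) and all genes with 1 position (grey). The 42 genes exceed all genes for H3K27me3 in both ages, with 85.7% in each, and lie far below them for H3K27ac, with 2.38% against 34.0%.

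Methylation inside the H3K4me1 peaks near the matrix genes could be tested in 45 of 97 young peaks and 14 of 32 old peaks. Lower methylation in the old library was found in 2 young peaks and higher in 7, and 0 old peaks passed in either direction, where 16.9% of all tested peaks were lower and 9.81% higher. The loss with the larger size lay inside Lama4 (chr10:38807057-38807183 in mm9), from 75% to 43.6%, and the other at the start of Col6a2, from 25.1 to 14.8%. Gains were found at Col1a1, Col5a1, Fbln5, Loxl1, Timp3 and Cspg4 and in the peak shared by Col4a1 and Col4a2. The Col5a1 peak rose from 33.0 to 58.4%, the Fbln5 peak from 12.5 to 35.9%, the Cspg4 peak from 10.0 to 32.5%, and the Col1a1 peak from 0 of 33 calls, which allows a level of up to 9.09%, to 16.5%. The Col1a1 peak lay 1232 bases past the start.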

How the data were processed

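The members and the gene lists were chosen with earlier results of these data known. Per the submitters' processing notes, the series was processed on build mm9 with STAR, HOMER, edgeR, Bowtie 0.12.7 and CASAVA 1.8.2. The deposited RNA table holds read counts per RefSeq transcript; the one with the highest total stood for each gene. Reads shared by transcripts or by overlapping genes may be counted more than once, and the sources used here do not state whether strand was used. The authors' FPKM table was taken as a signal on an unknown scale, for positions and levels per length; 1 of its columns was not used. HOMER called the H3K4me1 and H3K27ac peaks, per the file headers, and their deposited scores were not used. The H3K27me3 lists carry an unlabelled deposited score, used only in an alternative, and an unlabelled deposited p-value. The deposited methylation tables give a methylated fraction and read counts per CpG; methylated calls are their product. Of 18550132 CpGs in both libraries, the median coverage was 18 reads in the old and 16 in the young one.

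RNA was tested with edgeR 4.0.16 (quasi-likelihood, TMM factors, filterByExpr) in R 4.3.3, with DESeq2 1.42.0 as an alternative. CPM use TMM factors; SE is the size of the log2 fold change over the root of F. Ratios of young libraries carry intervals from the counts. The scripts were tested on simulated data. GRCm38.p6 promoter sequences were tied to mm9 CpG calls by the spacing of their CGs from the start, with no conversion of coordinates; 27 of the 28 genes with a sequence matched in full. Full values are given for the 3 genes of each role with the highest young mean and for any gene that rose, was at 0 in all old libraries, was called in promoter methylation or had H3K27me3 at its start in 1 age only; of the other lists up to 3 genes with the highest mean were named. Thbs2, Col6a3, Col15a1, Des, Rgs5, the ends of the methylation range and the H3K4me1 peaks were singled out after their values were seen. Alternatives were other scaling, no filter, the first transcript, DESeq2, each library left out, and other coverage, windows, thresholds, weighting and overlap for methylation and marks. The input libraries carry no files here and were not analysed here.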

Additional observations from a re-analysis of the deposited data

How the results depend on the processing

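The fall of the matrix genes kept its count under other scaling, no filter and the first listed transcript (36 each), and 0 rose in any alternative run. Leaving out each library gave 14 to 39 fallen genes and medians of -6.58 to -4.12. Without old replicates 1, 2 and 3, 21, 27 and 14 fell; fits without 1 old library also called fewer genes overall (291, 391 and 273 fell, against 1232), and a lone young library is assumed to vary like the old ones. RLE factors shifted the median of all genes to -0.17 and no scaling to -0.22, against -0.05. Over the 42 genes and the fits that leave out 1 library, signs reversed for 3 genes, none of them called when reversed: Loxl2 ran from -0.44 without the deeper to 0.36 without the shallower young library (0.08 without old library 1), Col5a2 from -2.06 without the shallower to 0.017 without the deeper, and Timp1 from -1.65 to 1.36 likewise. For promoters, windows of 2000 bases gave 1 loss and 0 gains, a limit of 20 points 0 and 0, and equal weight per CpG, chosen after seeing the data, 0 gains. With equal weight, differences of at least 10 points toward lower old levels stood at Dcn (-21.4), Acta2 (-14.4), Col6a2 (-12.5) and Col6a1 (-10.3). The Col5a2 promoter difference reversed to 4.15 (500 bases), 3.30 (2000 bases) and 8.30 points (equal weight); the cause was not tested. The median promoter difference ran from -0.95 to 2.30 points. At 20 points, 1 H3K4me1 peak was lower and 3 higher. H3K27me3 at the start was found in 34 to 37 genes in either age under each alternative. No paired analysis was possible because the labels tie no old library to a young one.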
